A study of Caenorhabditis elegans with 6 samples.

Results

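The genes described are 10 genes of meiotic chromosomes in Caenorhabditis elegans: the axis genes htp-3, him-3, htp-1 and rec-8, the synaptonemal complex genes syp-1, syp-2 and syp-3, the break gene spo-11, and the pairing genes him-8 and zim-2. They were chosen by gene symbol in the deposited signal table, where each matched 1 probe set, 10 of 27568 probe sets that carried a gene name and were tested. The last 3 of them encode proteins that are neither part of the axis nor of the synaptonemal complex, so the set is wider than those structures.

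Transcripts were measured in whole wild-type N2 animals on Affymetrix arrays, in 3 groups of 2 arrays: animals given 100 µM Ponceau Red, animals given 100 µM tartrazine, and animals treated with water. Both colorants are synthetic azo dyes. Exposure took 48 h at 20 °C in S medium, from 16 to 18 h after hatching, and the labels put every sample at 3 days of age and at the young adult stage. Arrays carry the numbers of the deposited columns, which are 2 and 3 for Ponceau Red and 1 and 2 for both tartrazine and water. The names of water column 1 and tartrazine column 2 carry a further number, 3 and 1, whose meaning the sources used here do not state. The labels call the samples of a group independent trials and do not say what was separate between them, so the p-values cover no more than the spread among 6 arrays.

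In meiosis each chromosome organises its sister chromatids as loops along a protein axis, built on cohesin and on proteins with a HORMA domain. The synaptonemal complex is a zipper-like protein structure that joins the axes of paired homologous chromosomes, while programmed double-strand breaks are repaired into crossovers. In C. elegans these steps run in germ cells as they pass from the distal, dividing zone of the gonad through pachytene, and zinc finger proteins bound at pairing centres near chromosome ends bring homologues together. Adult hermaphrodites carry large numbers of such germ cells, whereas young larvae carry few.

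All 10 genes had high signals in the same 3 arrays, Ponceau Red array 2 and both tartrazine arrays, and low signals in Ponceau Red array 3 and both water arrays. In each of the 10 genes the lowest of the first 3 signals exceeded the highest of the other 3, by 1.27 log2 for htp-3 and by 6.24 log2 for him-3 at the extremes. The same separation of these arrays held for 21% of all tested probe sets. The tartrazine arrays lay above the water arrays by a median of 3.83 log2 over the 10 genes. The fit over 6 arrays passed 0 of 10 genes in any comparison, and the fit over the tartrazine and water arrays alone passed 10 of 10, against 35.1% of all probe sets.

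**Figure D1:**
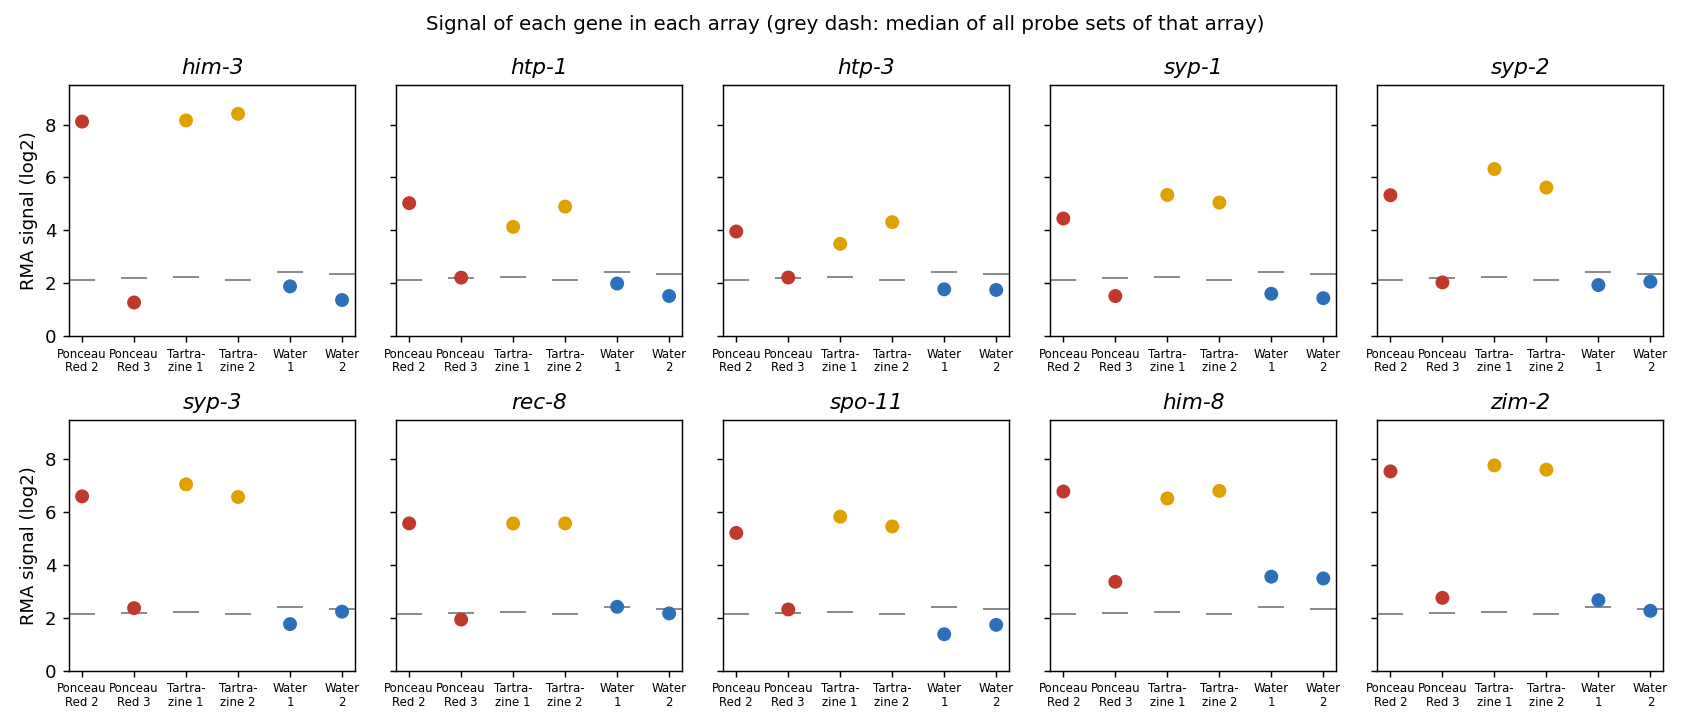
Signal of each of the 10 genes (y axis, RMA signal in log2) in each of the 6 arrays (x axis; red Ponceau Red, yellow tartrazine, blue water), 1 point per array, with a grey dash at the median of all probe sets of that array. Ponceau Red array 2 and both tartrazine arrays sit above Ponceau Red array 3 and both water arrays in all 10 panels.

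Signals are log2 values that the authors computed with RMA, which combines the probes of a transcript and brings arrays to a common distribution. Array medians ran from 2.13 to 2.40 log2, being 2.13 and 2.17 in Ponceau Red, 2.22 and 2.13 in tartrazine, and 2.40 and 2.35 in water. Of the 10 genes, 7 lay below the array median in both water arrays. The files used here carry no detection call, so whether these low signals stand above background was not tested, and differences are given in log2 without a fold. No gene's level is set against another's, since probes differ in brightness. A gene passed when its Benjamini-Hochberg adjusted p from limma, over all tested probe sets, was under 0.05. Errors are standard errors of that fit, with n = 2 arrays per group.

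The axis genes come first. HTP-3, a HORMA domain protein on which the other such proteins of the worm's axis depend for loading, is encoded by htp-3 (probe set 18457230; chromosome I, 4827072 to 4829796, assembly WBcel235). Its signal was 3.95 and 2.21 log2 in Ponceau Red, 3.48 and 4.31 in tartrazine, and 1.76 and 1.74 in water. The Ponceau Red arrays lay apart from each other, and the lower of them was still above both water arrays. This gene had the smallest tartrazine difference of the 10, at 2.14 ± 0.64 log2 (limma adjusted p = 0.126 over 6 arrays).

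HIM-3, a HORMA domain protein needed for homologue alignment and for holding sister chromatids in place, is encoded by him-3 (probe set 18547184; chromosome IV, 6977508 to 6978765). Its signal read 8.11 and 1.26 log2 in Ponceau Red, 8.16 and 8.41 in tartrazine, and 1.88 and 1.36 in water. Ponceau Red array 2 was just below both tartrazine arrays, and array 3 was below both water arrays. The tartrazine difference of 6.67 ± 2.23 log2 was the largest of the 10 (limma adjusted p = 0.145 over 6 arrays).

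HTP-1, which is closely related to HTP-2 in sequence and prevents synapsis between chromosomes that are not homologous, is encoded by htp-1 (probe set 18552488; chromosome IV, 5390189 to 5391557). Signals were 5.03 and 2.21 log2 in Ponceau Red, 4.13 and 4.89 in tartrazine, and 1.98 and 1.51 in water. In this gene alone of the 10, Ponceau Red array 2 lay above both tartrazine arrays. The tartrazine difference was 2.77 ± 0.97 log2 (limma adjusted p = 0.153 over 6 arrays). The deposited table marks none of the 10 probe sets for cross-hybridisation, but signal shared between htp-1 and htp-2 was not tested.

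REC-8, the meiotic kleisin that closes the cohesin ring around sister chromatids, is encoded by rec-8 (probe set 18556861; chromosome IV, 13349122 to 13353193). Its signals were 5.57 and 1.93 log2 in Ponceau Red, 5.57 and 5.57 in tartrazine, and 2.42 and 2.17 in water. The 3 high arrays read alike, and Ponceau Red array 3 fell below both water arrays. The tartrazine difference was 3.28 ± 1.19 log2, with the highest adjusted p of the 10 (limma adjusted p = 0.160 over 6 arrays).

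The syp genes encode coiled-coil proteins of the central region, which spans the gap between paired axes and which each of them is needed to build. The signal of syp-1 (probe set 18568335; chromosome V, 16404274 to 16407701) was 4.44 and 1.51 log2 in Ponceau Red, 5.34 and 5.05 in tartrazine, and 1.60 and 1.43 in water. That of syp-2 (probe set 18563611; chromosome V, 5536487 to 5537717) was 5.33 and 2.02 log2 in Ponceau Red, 6.32 and 5.61 in tartrazine, and 1.92 and 2.05 in water. For syp-3 (probe set 18469680; chromosome I, 8663048 to 8664120) it was 6.60 and 2.37 log2 in Ponceau Red, 7.05 and 6.57 in tartrazine, and 1.76 and 2.23 in water. Ponceau Red array 2 was lower than both tartrazine arrays for syp-1 and syp-2, and lay between them for syp-3. The tartrazine differences were 3.68 ± 0.97 log2 for syp-1, 3.98 ± 1.10 for syp-2 and 4.81 ± 1.39 for syp-3 (limma adjusted p = 0.107, 0.114 and 0.122 over 6 arrays).

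SPO-11, the topoisomerase-like enzyme that makes the meiotic double-strand breaks, is encoded by spo-11 (probe set 18555780; chromosome IV, 11123133 to 11124862). Its signals were 5.21 and 2.32 log2 in Ponceau Red, 5.83 and 5.46 in tartrazine, and 1.38 and 1.73 in water. Ponceau Red array 2 was lower than both tartrazine arrays, and array 3 lay 0.76 log2 above the water mean, the largest such excess of the 10 genes in that array. Its tartrazine difference of 4.09 ± 0.96 log2 had the lowest adjusted p of the 10 (limma adjusted p = 0.0910 over 6 arrays).

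HIM-8 and ZIM-2 are zinc finger proteins that bind the pairing centres of the X chromosome and of chromosome V. The signal of him-8 (probe set 18541901; chromosome IV, 10561905 to 10563974) was 6.78 and 3.36 log2 in Ponceau Red, 6.52 and 6.80 in tartrazine, and 3.56 and 3.49 in water. That of zim-2 (probe set 18541882; chromosome IV, 10555649 to 10558225) was 7.54 and 2.76 log2 in Ponceau Red, 7.77 and 7.61 in tartrazine, and 2.67 and 2.27 in water. Only him-8, of the 10 genes, was above the array median in both water arrays. The tartrazine differences were 3.14 ± 1.12 log2 for him-8 and 5.22 ± 1.56 for zim-2 (limma adjusted p = 0.157 and 0.127 over 6 arrays).

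Of the 10 genes, 6 lie on chromosome IV, 2 on chromosome I and 2 on chromosome V. The genes zim-1, zim-2, zim-3 and him-8 lie side by side within 16889 bp, with gaps of 135, 489 and 475 bp between neighbours, and they are the 4 coding genes annotated there. The 2 that are not among the 10, zim-1 and zim-3, encode the pairing centre proteins of other autosomes. The signal of zim-1 was 6.84 and 1.97 log2 in Ponceau Red, 6.97 and 6.82 in tartrazine, and 2.16 and 2.80 in water. That of zim-3 was 5.77 and 2.49 log2 in Ponceau Red, 5.44 and 5.96 in tartrazine, and 3.73 and 3.00 in water. All 4 neighbours were thus high and low in the same arrays.

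By RefSeq positions, 3 of the 10 genes overlap another coding gene and 7 overlap none. The largest overlap, of 991 bp, is that of syp-1 with F13A7.14. The gene syp-3 overlaps mrt-1 by 57 bp, and mrt-1 read 5.78 and 3.19 log2 in Ponceau Red, 5.32 and 6.20 in tartrazine, and 3.76 and 3.72 in water, high in the same arrays. The chaperone gene enpl-1, which overlaps spo-11 by 23 bp, ran the other way, at 7.77 and 8.64 log2 in Ponceau Red, 7.39 and 7.59 in tartrazine, and 8.28 and 8.52 in water. F13A7.14 read 5.13 and 3.00 log2 in Ponceau Red, 5.42 and 5.55 in tartrazine, and 3.20 and 2.78 in water, high in the same arrays as syp-1. How much signal these pairs share was not tested.

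Set against water, Ponceau Red addresses which transcripts differ after exposure to that dye. All 10 genes had a higher mean in Ponceau Red, by a median of 1.78 log2 against 0.06 over all tested probe sets. The differences ran from 1.33 ± 0.64 log2 for htp-3 to 3.07 ± 2.23 for him-3. None passed in limma, with 0 of 10 genes against 2.89% of all probe sets, or 0.138% passing as higher, and the adjusted p ran from 0.397 for spo-11 to 0.623 for rec-8. For him-3 the 95% interval reached from -2.73 to 8.87 log2, and the intervals of the other 9 genes also held 0. Unadjusted, 0 of 10 had a p under 0.05, against 4096 of all tested probe sets. Over the 4 Ponceau Red and water arrays 0 of 10 passed as well (0.461% of all probe sets, 0.00725% as higher).

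**Figure D2:**
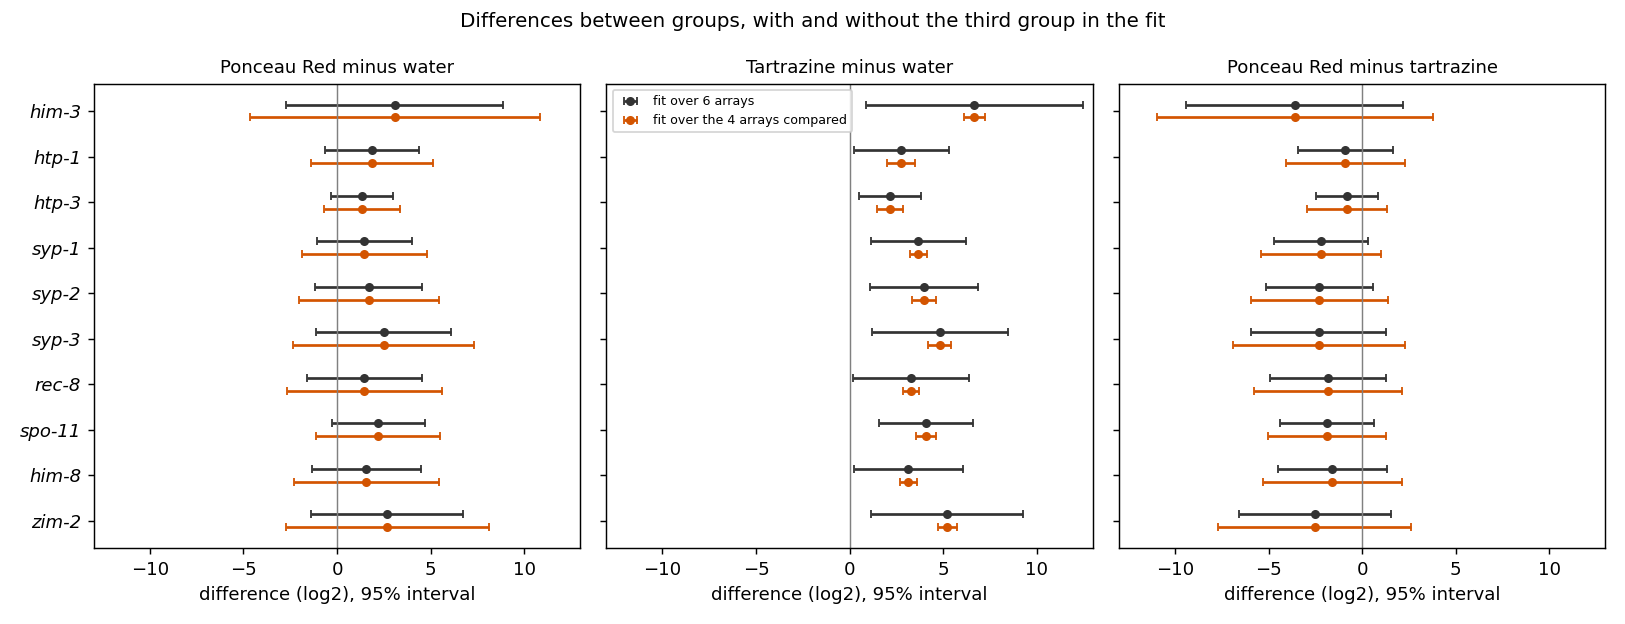
Difference between groups in log2 (x axis) for each of the 10 genes (y axis), as point and 95% interval, from the fit over 6 arrays (black) and over the 4 arrays compared (orange), in 3 panels for Ponceau Red minus water, tartrazine minus water and Ponceau Red minus tartrazine. In the panel for tartrazine minus water the orange intervals are the narrower ones, for example 6.10 to 7.23 log2 for him-3, and in the other panels all intervals hold 0.

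The spread between the Ponceau Red arrays was larger than the difference itself. Array 2 exceeded array 3 by 6.85 log2 for him-3, whose array 3 signal lay below the array median, by 4.79 for zim-2 and by 4.23 for syp-3, and at the low end by 1.74 for htp-3. All 10 genes were more than 1 log2 higher in array 2, against 12.3% of all tested probe sets. Without array 3 the 10 genes all passed (median 3.31 log2, limma adjusted p from 1.42e-04 for him-3 to 0.0058 for htp-3, against 13.1% of probe sets passing as higher). Without array 2, again with 1 Ponceau Red array, the median was 0.16 log2, with 6 genes higher and 4 lower than water. Both Ponceau Red arrays lay above both water arrays for 5 genes, htp-1, htp-3, syp-3, spo-11 and zim-2, against 24.8% of all probe sets.

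Tartrazine was set against water in the same way. In each of the 10 genes both tartrazine arrays lay above both water arrays, which held for 33.7% of all tested probe sets, while 34.3% lay below without overlap. The median difference was 3.83 log2, against 0.02 over all probe sets, and the 10 differences ranged from 2.14 log2 for htp-3 to 6.67 for him-3. Over 6 arrays 0 of 10 genes passed, against 4.38% of all probe sets, or 0.519% passing as higher. All 10 had an unadjusted p under 0.05 there, as did 7896 of the 27568 probe sets. Their limma adjusted p ran from 0.0910 to 0.160.

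That fit shares 1 estimate of spread among the 3 groups, including the gap between the Ponceau Red arrays. The fit over the 4 tartrazine and water arrays gave the same differences with smaller errors, and 10 of 10 genes passed against 35.1% of all probe sets, or 16.1% passing as higher. There him-3 rose by 6.67 ± 0.23 log2 (limma adjusted p = 4.02e-05), zim-2 by 5.22 ± 0.21 (4.2e-05) and syp-3 by 4.81 ± 0.25 (6.9e-05). At the other end htp-3 rose by 2.14 ± 0.29 log2 (limma adjusted p = 0.0019). Leaving out either Ponceau Red array also gave 10 of 10, in a fit where the lone Ponceau Red array adds nothing to the estimate of spread. Leaving out any 1 water or tartrazine array gave 0 of 10 and 0 of all probe sets in limma, with 1 of 10 genes at an unadjusted p under 0.05 each time.

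The 2 dyes were compared at the same dose and time, as the 1 pair of compounds. All 10 genes had a lower mean in Ponceau Red than in tartrazine, by a median of -2.05 log2 against -0.0038 over all tested probe sets. None passed (0 of 10 genes against 0% of probe sets, limma adjusted p from 0.681 to 0.765), while without adjustment 0 of 10 genes and 1243 probe sets were under 0.05. For syp-1 the difference was -2.21 ± 0.97 log2, with a 95% interval from -4.73 to 0.30. For htp-3 it was -0.81 ± 0.64 log2, with an interval from -2.48 to 0.85. All 10 intervals held 0 and reached further below it than above, with upper limits from 0.30 for syp-1 to 2.20 for him-3. These arrays thus leave room for large differences downward, and for smaller ones upward.

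Against this, the order of arrays differed with the Ponceau Red array used. Array 2 lay between the tartrazine arrays for 4 genes, below both for 5 and above both for 1. The shares of all probe sets in these positions were not counted. Without array 3 the median difference was -0.16 log2. Array 3 lay below both tartrazine arrays in all 10 genes, and without array 2 the median was -3.66 log2 and 10 of 10 passed as lower, against 13% of probe sets. With both arrays used, Ponceau Red lay below tartrazine without overlap in 5 genes, him-3, syp-1, syp-2, spo-11 and zim-2, against 16.8% of all probe sets, and above it in 0 of 10, against 18.7%. The mean of Ponceau Red stood between those of tartrazine and water in all 10 genes, and its neighbours on either side did not differ from it beyond the spread. That mean averages 1 high and 1 low array, so its middle place does not show an intermediate level. The share of all probe sets with this order was not counted.

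Other meiotic genes were taken from 5 lists of 60 genes, of which 59 were measured. Over 6 arrays 1 of the 59 rose in tartrazine and 0 fell in limma, against 0.519% of all probe sets passing as higher. The 1 that rose was scc-2, which encodes a cohesin loader. Before adjustment 48 were under 0.05, as were 7896 of the 27568 probe sets. Over the 4 tartrazine and water arrays 55 rose and 0 fell, with a median of 2.34 log2. Of all probe sets 16.1% rose and 19% fell in that fit, and each list's count over these 4 arrays is to be read against those shares. In Ponceau Red 0 of 59 passed in limma and 6 were under 0.05 unadjusted, against 4096 of all probe sets, with a median of 1.05 log2 and 58 higher. The gene scc-2 read 5.26 and 4.74 log2 in Ponceau Red, 5.33 and 5.32 in tartrazine, and 4.02 and 3.92 in water (1.35 log2 in tartrazine, limma adjusted p = 0.049), so that both Ponceau Red arrays lay above water.

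Among 10 other axis and cohesin genes 10 rose in tartrazine over the 4 arrays, with a median of 1.62 log2. The signal of htp-2, the close relative of htp-1, was 6.39 and 1.83 log2 in Ponceau Red, 5.84 and 6.25 in tartrazine, and 1.93 and 1.76 in water. That of lab-1, whose product protects sister cohesion on the long arms, was 6.005 and 1.93 log2 in Ponceau Red, 6.09 and 6.39 in tartrazine, and 1.89 and 1.31 in water. The kleisins coh-3 and coh-4, which act beside REC-8, differed less, by 2.34 and 1.64 log2 in tartrazine. The cohesin subunits smc-1 and smc-3, which dividing somatic cells also use, differed by 1.97 and 1.61 log2.

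Of 5 further genes of the synaptonemal complex 4 rose in tartrazine over the 4 arrays. The central region genes syp-4, syp-5 and syp-6 differed by 3.25, 3.29 and 4.10 log2. The last 2, skr-1 and skr-2, encode SKP1-like proteins that also serve in ubiquitin ligases, and they parted. The signal of skr-1 was 8.85 and 9.42 log2 in Ponceau Red, 8.76 and 8.67 in tartrazine, and 9.19 and 9.07 in water, and it did not pass. That of skr-2 was 7.45 and 3.53 log2 in Ponceau Red, 7.91 and 7.46 in tartrazine, and 3.87 and 3.81 in water.

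Of 10 pairing genes 8 rose over the 4 arrays, with a median of 2.89 log2. The kinase genes plk-2 and chk-2, whose products act on the pairing centre proteins, differed by 2.61 and 2.91 log2 in tartrazine. Of 10 genes for the formation and first processing of breaks 10 rose, with a median of 2.68 log2. The signal of dsb-1, needed for SPO-11 to make breaks, was 7.02 and 2.11 log2 in Ponceau Red, 7.15 and 7.27 in tartrazine, and 4.44 and 3.23 in water. Its water arrays lay above Ponceau Red array 3. The differences in tartrazine were 3.94 log2 for dsb-2, 1.38 for him-17 and 1.40 for rec-1.

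Of 24 measured genes for repair and crossovers 23 rose over the 4 arrays, with a median of 2.24 log2. The strand exchange gene rad-51 differed by 2.06 log2, and its signal of 5.44 and 5.67 in water was well above the array medians. The crossover genes msh-5, cosa-1 and zhp-3 differed by 2.31, 2.62 and 2.76 log2 in tartrazine. The cosa-1 signal was 3.35 and 1.89 log2 in Ponceau Red, 4.33 and 3.78 in tartrazine, and 1.67 and 1.19 in water.

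**Figure D3:**
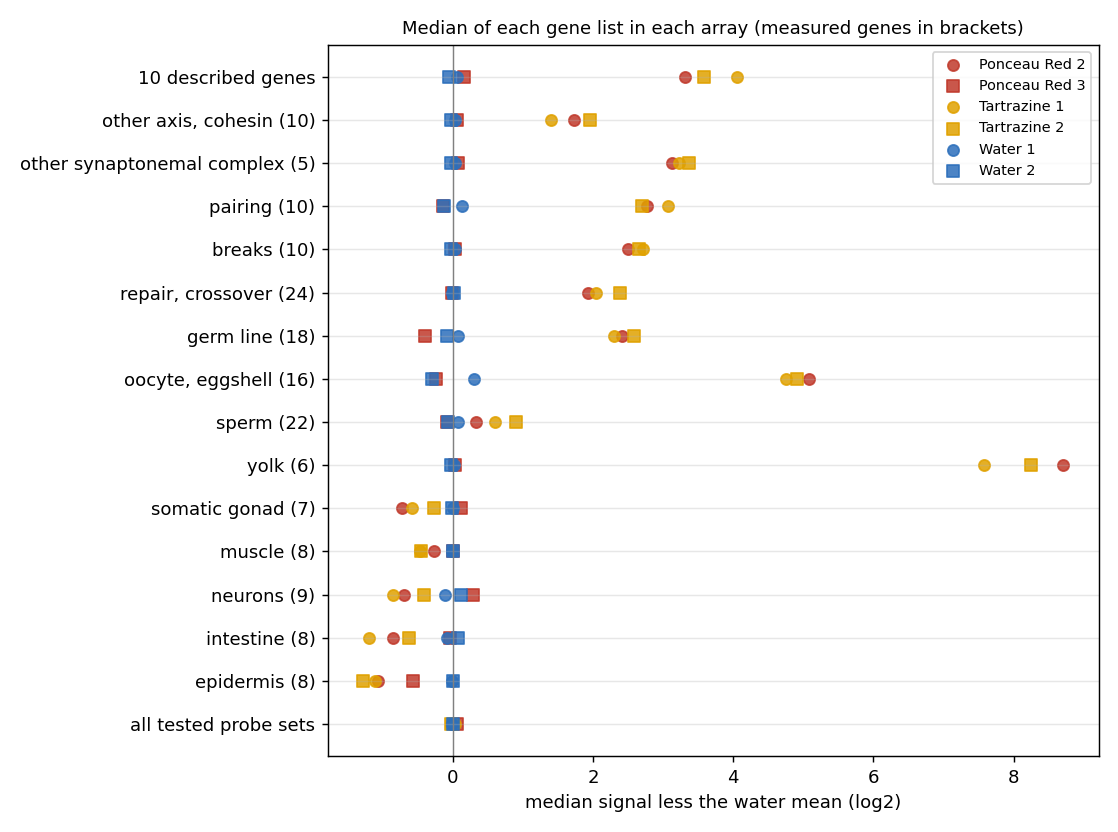
Median over the measured genes of each list of the signal less the water mean (x axis, log2), 1 point per array (red Ponceau Red, yellow tartrazine, blue water; circle and square for the lower and higher array number), with lists on the y axis and the number of measured genes in brackets. Yolk and oocyte lists reach 7.57 to 8.71 and 4.75 to 5.08 log2 in Ponceau Red array 2 and both tartrazine arrays, and the meiotic lists 1.40 to 4.05.

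Markers of germ cells and of adult reproduction moved with the 10 genes, and their part in the results was not tested. In whole animals, fewer germ cells and less RNA per germ cell cannot be told apart. The summed linear signal of 18 germ line genes was 2726 and 858 in Ponceau Red, 2399 and 2671 in tartrazine, and 702 and 716 in water. The sum for Ponceau Red array 3 rests on a few bright genes, cgh-1 at 8.81 log2, mex-3 at 7.27 and csr-1 at 6.96, named here after their values were seen. The same genes weigh on the water sums, at 8.33 and 8.44 log2 for cgh-1, 6.42 and 6.34 for mex-3, and 6.90 and 7.13 for csr-1. In Ponceau Red array 3 the list's median was -0.40 log2 from the water mean, and 8 of 18 genes were below the array median, against 2 and 4 in the water arrays. The RNA helicase gene glh-1, of germ granules, read 4.64 and 1.45 log2 in Ponceau Red, 5.26 and 5.08 in tartrazine, and 3.04 and 2.54 in water, both higher in tartrazine than in water. Its relative glh-2 read 5.06 and 1.70 log2 in Ponceau Red, 4.83 and 5.38 in tartrazine, and 2.26 and 2.30 in water. Of these 18 genes 17 rose and 1 fell in tartrazine over the 4 arrays, and 0 passed in limma over 6. Unadjusted, 8 had a p under 0.05 over 6 arrays, as did 7896 of the 27568 probe sets.

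Oocyte and eggshell genes, 16 in number, summed to 5163 and 111 in Ponceau Red, 4340 and 4507 in tartrazine, and 191 and 115 in water, and all 16 rose in tartrazine over the 4 arrays. The oocyte maturation gene oma-1 read 6.61 and 2.34 log2 in Ponceau Red, 6.81 and 6.69 in tartrazine, and 3.27 and 2.30 in water. The 6 yolk genes summed to 10122 and 24.1 in Ponceau Red, 5405 and 8184 in tartrazine, and 26.7 and 25.04 in water. In water 5 of these 6 were below the array median in each array, as were 4 of 6 in Ponceau Red array 3. Yolk and oocyte signals were thus low in 3 arrays, while the labels give 1 stage for all 6, and a difference in stage was not tested.

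Sperm genes split the high arrays in another way. The 22 measured ones summed to 196 and 85.5 in Ponceau Red, 438 and 478 in tartrazine, and 90.5 and 79.6 in water. The major sperm protein genes msp-3 and msp-19 had tartrazine differences of 1.30 and 0.12 log2, and msp-19 was below the array median in every array. Larger differences, named here after their values were seen, were 4.64 log2 for msp-45, 4.38 for msp-57, 4.28 for nspd-1 and 3.71 for msp-31. Over 6 arrays 3 sperm genes rose in tartrazine and 0 fell, against 0.519% of all probe sets passing as higher. Over the 4 arrays 12 rose and 0 fell, against 16.1% and 19% of all probe sets. Ponceau Red array 2, with high signals in the 10 meiotic genes, thus had a summed sperm signal below that of both tartrazine arrays. The tartrazine sums rest largely on msp-45, msp-57, nspd-1 and msp-31. For msp-45 the signal was 4.63 log2 in Ponceau Red array 2, against 6.94 and 6.82 in tartrazine. Of the 22 genes, 9 were below the array median in Ponceau Red array 2, and 11 and 8 in tartrazine.

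Somatic lists had median tartrazine differences from -1.20 log2 for epidermis to -0.51 for muscle, against 0.90 for the sperm list and 1.62 for the other axis and cohesin genes. In tartrazine over the 4 arrays, 0 of 8 muscle genes rose and 2 fell, 0 of 9 neuron genes rose and 4 fell, and 0 of 8 intestinal genes rose and 5 fell, against 19% of all probe sets falling. Of 8 epidermal genes 1 rose and 6 fell, and of 7 genes of the somatic gonad 1 rose and 3 fell. Of the marker genes fixed to be named, the cuticle collagens dpy-7 and rol-6 differed by -2.62 and -3.56 log2 in tartrazine, the muscle myosins myo-3 and unc-54 by -0.79 and -0.03, the neuronal genes unc-119 and rab-3 by 0.79 and -1.31, and the intestinal genes elt-2 and ges-1 by -2.03 and -0.99. The collagen rol-6 passed over 6 arrays in both dyes, at 3.46 and 3.41 log2 in Ponceau Red, 3.07 and 3.35 in tartrazine, and 6.83 and 6.70 in water (limma adjusted p = 0.0052 and 0.0050), so that in this gene both Ponceau Red arrays were low. The gonad genes lim-7 and ckb-3 differed by -1.03 and 0.08 log2. The single epidermal gene that rose was col-19, an adult cuticle collagen singled out here after its values were seen, at 8.12 and 2.40 log2 in Ponceau Red, 6.93 and 7.91 in tartrazine, and 3.19 and 3.20 in water.

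The 10 genes differed among themselves mainly in the size of the step between arrays. Each gene's signals, less their own mean over the 6 arrays, were set against the mean of the other 9 so centred. The root mean square difference was lowest for syp-2, at 0.31 log2, and highest for him-3, at 1.60, followed by htp-3 at 1.076. Among 4603 other coding genes with a range of at least 2 log2, the 5 nearest to the mean profile of the 10 were syp-6 at 0.065 log2, cep-1 at 0.071, C46A5.6 at 0.094, EEED8.14 at 0.099 and C08H9.16 at 0.12. The cep-1 signal, that of the worm's p53 homologue, was 5.79 and 2.13 log2 in Ponceau Red, 6.11 and 5.99 in tartrazine, and 2.14 and 2.11 in water. These likenesses rest on 6 arrays that share 1 large step and are given as a description.

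The authors' deposited table for Ponceau Red lists all 10 genes, with a linear ratio of treated over control and an unadjusted p. In the authors' deposited table the ratio ran from 1.13 for rec-8 to 1.98 for syp-3, with an unadjusted p from 0.68 for htp-1 to 0.941 for rec-8. The authors' deposited table for tartrazine lists 1746 probe sets, with p up to 0.05, and 0 of the 10 genes are among them. In the Ponceau Red table the ratios, F scores and sums of squares imply 5 arrays, split 3 against 2 with 3 degrees of freedom for error, while 4 were analysed here. The sources used here do not state which group held the fifth.

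If the fifth array was a control and the others had the signals analysed here, the authors' deposited table implies its signal per gene. It would have read 8.11 log2 for him-3, 8 for zim-2, 6.49 for syp-3 and 6.41 for him-8, and at the low end 4.82 for syp-1, 4.83 for htp-1 and 4.88 for htp-3. These lie above both water arrays in all 10 genes, by a median of 3.96 log2 over the water mean, against 0.02 over all 29317 probe sets. By the authors' ratios they also lie within 1 log2 of the tartrazine mean in all 10. For spo-11 and syp-1 the root of the authors' error sum of squares was 3.17 and 2.94, below the 4.38 and 3.41 these values give. The likeness to tartrazine is therefore uncertain for these genes. If the fifth array was a Ponceau Red array, the implied signal would be below 0 for 8 of the 10 and for 2.49% of all probe sets, against 0 of the 10 and 0.0648% if it was a control. These 8 ran from -1.81 log2 for him-3 to -0.0069 for syp-3, and the lowest signal of any array was 0.44. The implied values are approximate, and several of the 8 lie close to 0. The error term rebuilt under the control reading differed, as a root sum of squares, from that in the authors' deposited table. The gap was a median of 0.18 log2 over all probe sets and up to 1.22 log2 among the 10, for spo-11. It is not the error of an implied signal, which was not computed. No error term was rebuilt for the Ponceau Red reading, so whether the 8 lie below 0 beyond their error was not tested.

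**Figure D4:**
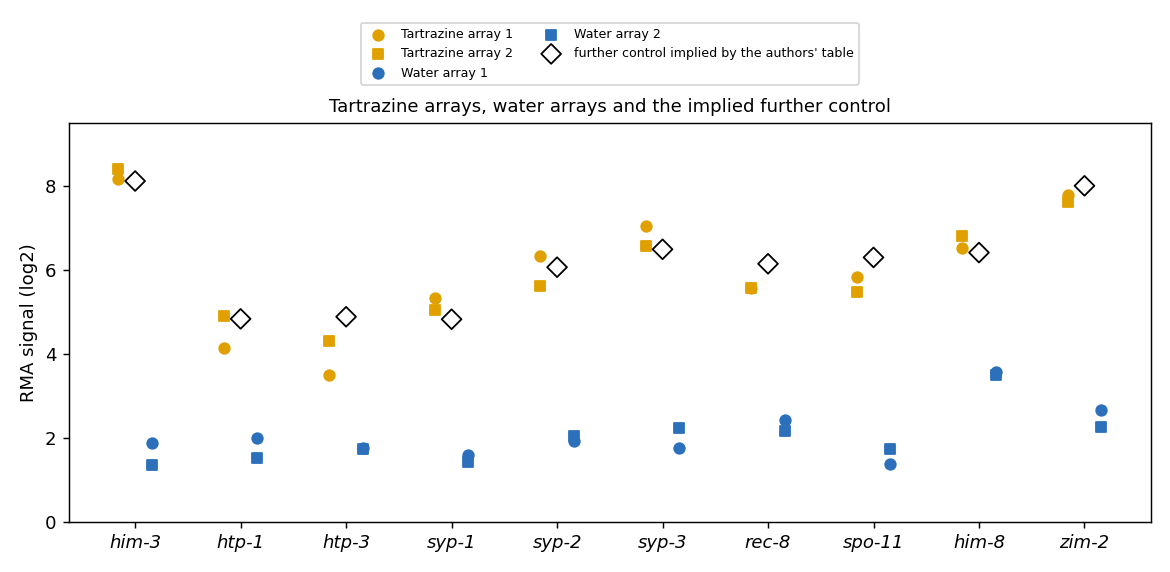
RMA signal in log2 (y axis) of each of the 10 genes (x axis) in both tartrazine arrays (yellow) and both water arrays (blue). Open diamonds give the fifth array that the authors' deposited Ponceau Red table implies, read as a control. Each diamond, an approximate value from the authors' ratios, lies within 1 log2 of the tartrazine mean and above both water arrays. For spo-11 and syp-1 the authors' error term is smaller than these values give.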

How the data were processed

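Expression was measured on 6 arrays of whole animals, from 3.5 ng of total RNA per sample, per the labels' protocols. The authors deposited log2 signals per probe set made with RMA, per the file headers and the submitters' processing notes. The sources used here name neither its version and options nor the array annotation. Another deposited table of log2 signals, with 1 column per labelled sample, served as an alternative. The authors also deposited a ratio, a p-value, an F score and sums of squares (also scores) per probe set and dye, per the file headers.

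Of 29317 probe sets, 27568 with a gene name were tested and 1749 left out. Names and positions came from RefSeq (assembly WBcel235), through accession for 24021, symbol for 3301 and the file alone for 246. Groups came from the labels. The groups were compared in R 4.3.3 with limma 3.58.1 (lmFit, eBayes, two-sided, no filter on low signal; 3 residual and 1.79 prior degrees of freedom), with Benjamini-Hochberg adjustment over all tested probe sets. The fit was checked on simulated arrays. An exact permutation test of 2 arrays against 2 cannot go below 0.333 and was not used.

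The 10 genes and all lists were chosen with earlier results of these data known. Named genes were the 10, other meiotic genes fixed by name, any listed meiotic gene that passed, 2 per marker list and the 5 most like in profile. A gene with several probe sets was taken at its brightest. No sequences are printed. Alternatives were the 4 arrays compared, array centring, the second table with and without the trial as a block, a signal filter, unnamed probe sets, a variance trend and each array left out. The number of arrays limits the precision.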

Additional observations from a re-analysis of the deposited data

Results flagged for a closer look

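The fifth array implied by the authors' deposited Ponceau Red table lies outside the arrays analysed. Read as a control, it lies above both water arrays in the 10 genes. The median over the 10 genes was 3.96 log2 above the water mean, against 0.02 log2 over all 29317 probe sets. If that array was a control, controls were high as well as low in these genes. The identity of that array was not tested.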

How the results depend on the processing

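Counts of genes passing in limma stayed at 0 of 10 in all 3 comparisons with each array centred on its median, with the second table, with the signal filter, with unnamed probe sets included and with a variance trend. Deviations of same-numbered samples correlated at 0.04 between Ponceau Red and water, 0.16 between tartrazine and water and -0.04 between Ponceau Red and tartrazine. With 1 difference between trials per group, these values cannot show whether trials of the same number shared a batch. With the labelled trial as a replicate block on the second table the counts were also 0 of 10, while the calls over all probe sets went to 263 for Ponceau Red against 684 without the block, and to 1197 for tartrazine against 2801. With the 4 arrays compared, 10 of 10 passed for tartrazine, 0 for Ponceau Red and 0 between the dyes, and over all probe sets 9690 passed for tartrazine against 1208 over 6 arrays, and 127 for Ponceau Red against 796. With 1 array left out, the lone array of a group being taken to vary like the others, each comparison ranged from 0 to 10 of 10. It was 10 for Ponceau Red minus water without Ponceau Red array 3, for tartrazine minus water without either Ponceau Red array, and for Ponceau Red minus tartrazine without Ponceau Red array 2.

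For single genes 382 of 390 alternative values kept their direction. Many of them could not change: the 4 arrays compared, the signal filter, unnamed probe sets and the variance trend leave a gene's difference as it was. So does leaving out an array of the group not compared, and the count is therefore no measure of robustness. The 8 that turned all came with a Ponceau Red array left out. Without array 2, Ponceau Red minus water was -0.35 log2 for him-3, -0.0037 for syp-1, -0.36 for rec-8 and -0.16 for him-8. Without array 3, Ponceau Red minus tartrazine was 0.51 log2 for htp-1, 0.057 for htp-3, 0.0011 for rec-8 and 0.12 for him-8. With these arrays in turn left out, the range of the difference from water was -0.35 to 6.496 for him-3, -0.0037 to 2.93 for syp-1, -0.36 to 3.28 for rec-8 and -0.16 to 3.26 for him-8. That of the difference between the dyes was -2.31 to 0.51 for htp-1, -1.68 to 0.057 for htp-3, -3.64 to 0.0011 for rec-8 and -3.30 to 0.12 for him-8. Centring each array moved the median of all probe sets to 0.28 log2 for Ponceau Red and 0.22 for tartrazine, with 2.00 and 4.03 for the 10 genes. The cause of these changes was not tested beyond what the arrays left out show.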
